A study of Homo sapiens with 12 samples.

Results

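TXNIP, 4 other alpha-arrestins (ARRDC1, ARRDC2, ARRDC3 and ARRDC4) and 3 glucose-sensing transcription factors (MLXIP, MLXIPL and MLX) make up the 8 genes described here, of 60668 genes in the count table. They were taken by gene symbol, and the set was chosen because TXNIP fell strongly after FOSL1 knockdown in PANC-1 cells. Their values in that comparison are therefore given as a description, and nothing is read from their calls there. The rule for that choice did not use the 6 libraries of H1299 cells, and the genes were tested there. The members were, however, chosen with earlier results of these data known, so the H1299 tests may not be wholly independent of the choice.

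RNA was sequenced from PANC-1 cells, a human pancreatic cancer line, and from H1299 cells, a human lung cancer line labelled lung adenocarcinoma. The study is a single-cell atlas of metabolic gene expression in several cancer types. Within it, FOSL1, a subunit of the AP-1 transcription factor, was knocked down to follow up its inferred role as a potential regulator of metabolic programs. The libraries used here are labelled as FOSL1 knockdown in PANC-1 and knockdown of HDAC2, a histone deacetylase, in H1299, and the paper names no question for the latter. Each of the 4 groups (PANC-1 shFOSL1, PANC-1 scramble, H1299 shHDAC2 and H1299 scramble) had 3 libraries, and scramble of the same line served as the control for each knockdown. All groups were grown in DMEM with fetal bovine serum and carried a short hairpin RNA (shRNA), a control hairpin in the scramble groups. The methods describe FOSL1 hairpins, delivered to both lines by a lentiviral vector with selection in puromycin, and do not describe the HDAC2 hairpin. The labels name 1 shRNA per gene, sh2 for FOSL1 and sh1 for HDAC2, so an effect of the target cannot be told apart from an effect of that hairpin. The replicates are labelled biological, but whether they came from separate transductions is not given in the sources used here, and p-values measure the spread between these libraries. The FOSL1 libraries and the HDAC2 libraries come from different lines, so line and target cannot be told apart between the knockdowns.

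Alpha-arrestins are adaptor proteins that bring ubiquitin ligases of the NEDD4 family to membrane proteins, which are then taken up from the cell surface. TXNIP binds thioredoxin and lowers glucose uptake by acting on glucose transporters, and ARRDC4 is its closest relative and shares the effect on glucose uptake. Both genes are induced when glucose 6-phosphate builds up, through MondoA (the product of MLXIP) or its relative ChREBP (the product of MLXIPL), each of which binds DNA in a pair with MLX at carbohydrate response elements made of neighbouring E-boxes.

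The promoters of TXNIP and ARRDC4 are shown because both genes are known targets of MondoA and because both were lower in PANC-1 shFOSL1 libraries. The sequences are from RefSeq (GRCh38.p14), in which all 8 genes had at least 1 promoter window, 11 windows in all, each from 250 bases before to 50 bases after a start site. Capitals mark the letters of 4 motifs, searched on both strands: the E-box CACGTG, the paired E-box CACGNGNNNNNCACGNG, the CCAAT box and the AP-1 site TGANTCA, with lower case inside a motif where any base was allowed. ATTGG is the CCAAT box read on the other strand. The TXNIP stretch lies at chr1:145996619-145996729 on the minus strand, from 150 to 40 bases before the second of its 2 start sites. The ARRDC4 stretch lies at chr15:97960478-97960653 on the plus strand, from 225 to 50 bases before the start. Neither touches an annotated exon.
TXNIP: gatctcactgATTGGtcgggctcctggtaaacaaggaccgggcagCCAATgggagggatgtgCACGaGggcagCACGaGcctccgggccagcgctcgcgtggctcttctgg
ARRDC4: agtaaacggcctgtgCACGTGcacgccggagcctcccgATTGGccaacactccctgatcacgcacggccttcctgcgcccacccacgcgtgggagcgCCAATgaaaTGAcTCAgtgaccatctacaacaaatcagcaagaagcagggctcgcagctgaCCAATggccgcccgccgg

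The TXNIP promoter held 1 paired E-box and 2 CCAAT boxes, and no AP-1 site. The paired E-box was found in 20 of 35116 promoter windows (0.057%), and its letters were chosen with the TXNIP promoter known. ARRDC4 held 1 E-box, 3 CCAAT boxes and 1 AP-1 site, the kind of sequence that FOSL1 is known to bind in a pair with a JUN protein. An AP-1 site was found in 7.71% of all windows, an E-box in 7.26% and a CCAAT box in 34.6%. Among the other members, MLX held an E-box, and ARRDC2 held an AP-1 site at the first of its 2 starts. ARRDC1, ARRDC2, ARRDC3, MLXIP and MLX each had a CCAAT box in a window, and the MLXIPL window had none of the 4 motifs. A match says only that these letters are present in the window.

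**Figure D1:**
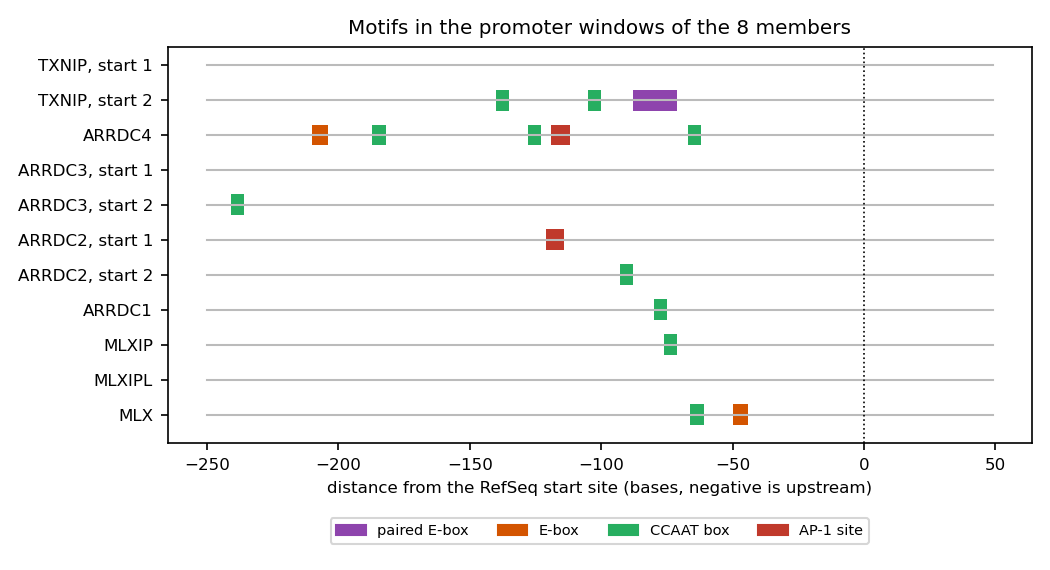
Positions of the 4 motifs in the 11 RefSeq promoter windows of the 8 genes, as distance in bases from the start site (dotted line, negative values upstream). Grey lines are the windows of 250 bases before to 50 bases after the start, and the paired E-box appears in 1 window, that of the second TXNIP start.

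The libraries held 16065723 to 19173421 counts each. FOSL1 was at 168 ± 5.77 CPM (counts scaled to library size; SD, n = 3) in PANC-1 shFOSL1 and 226 ± 13.9 in PANC-1 scramble, a log2 difference of -0.43 (SE 0.062). HDAC2 was at 75.1 ± 5.65 CPM in H1299 shHDAC2 and 179 ± 8.39 in H1299 scramble (log2 difference -1.26, edgeR adjusted p = 5.4e-15). FOSL1, the target in the other line, was itself higher after HDAC2 knockdown (594 against 448 CPM, log2 difference 0.40, edgeR adjusted p = 4.4e-06). The share of counts from mitochondrial genes was 12.9% ± 0.395 in PANC-1 shFOSL1 against 7.16% ± 0.154 in PANC-1 scramble, and 11.7% ± 0.659 against 12.5% ± 0.64 in H1299. Scramble replicate 1 stood apart from replicates 2 and 3 in both lines, where the chi-square statistic divided by its degrees of freedom was 7.08 and 9.54 in PANC-1 and 6.91 and 6.21 in H1299, against 2.29 to 3.61 for the other pairs within a group. Values of the members without those libraries are given beside the results. Epithelial markers summed to 2010 to 2610 CPM in PANC-1 scramble, 1540 to 1560 in PANC-1 shFOSL1, 550 to 609 in H1299 scramble and 347 to 367 in H1299 shHDAC2. KRT8 was the largest part of the sum in PANC-1, at 1410 CPM in scramble and 799 in shFOSL1. KRT19 alone went the other way there, at 316 CPM in scramble and 369 in shFOSL1. In H1299 scramble KRT8 was at 282 CPM and KRT18 at 286, while EPCAM was at 0.676 and the lung factor NKX2-1 at 2.49, so the defining lung markers were nearly absent. The 4 fibroblast markers summed to 220 to 283 CPM in PANC-1 scramble and 73.4 to 79.7 in PANC-1 shFOSL1, nearly all of it COL1A1 (249 and 77.3 CPM). The defining markers DCN and LUM had group means of at most 0.0769 CPM there, and blood cell markers summed to at most 0.587 CPM in any library. CDKN2A, deleted in PANC-1, had no counts in any PANC-1 library.

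TXNIP was the member with the widest range of levels. TXNIP (ENSG00000265972.6) lies on chr1:145992435-145996579 of GRCh38, minus strand. Levels are in CPM scaled by the TMM method over all 12 libraries unless a length scale is named. In PANC-1 scramble its level was 209, 202 and 178 CPM in replicates 1, 2 and 3, a mean of 196 ± 16 (SD, n = 3). In PANC-1 shFOSL1 it was 11.6, 14.6 and 9.2 CPM, a mean of 11.8 ± 2.73. Every knockdown library lay below every scramble library. The fitted log2 difference was -4.07 (SE 0.11), a level 16.7-fold lower, and TXNIP ranked 9 from the lowest of 16345 genes tested in PANC-1. Without scramble replicate 1 the difference was -4.00. The summed epithelial markers, COL1A1 and the mitochondrial share given above moved between the same libraries, and their part in the difference was not tested. These are bulk libraries, in which fewer cells with the transcript and less of it per cell cannot be told apart.

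In H1299 cells TXNIP was nearly absent. The counts were 0, 2 and 6 in the scramble libraries and 0 in each of the 3 shHDAC2 libraries. A count of 0 in the shHDAC2 libraries allows up to 3 counts, or 0.159 to 0.18 CPM per library, which covers counting error only. The highest H1299 scramble library was at 0.304 CPM, and both H1299 groups overlapped at 0. TXNIP did not pass the filter on low counts in H1299, so it was not tested there and no fold is given. Even after the fall in PANC-1, the lowest shFOSL1 library, at 9.2 CPM, lay far above the highest H1299 library.

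ARRDC4, the closest relative of TXNIP, was likewise highest in PANC-1 scramble, lower in PANC-1 shFOSL1 and lowest in H1299 cells. ARRDC4 (ENSG00000140450.9, chr15:97960703-97973833, plus strand) was at 19.9, 21 and 19.6 CPM in PANC-1 scramble (mean 20.2 ± 0.744). The PANC-1 shFOSL1 libraries were at 5.31, 8.28 and 2.9 CPM (mean 5.5 ± 2.7), all below scramble and far more spread. Replicate 2 was the highest and replicate 3 the lowest of the shFOSL1 libraries for both TXNIP and ARRDC4. The log2 difference was -1.89 (SE 0.19), 3.71-fold lower, and -1.88 without scramble replicate 1. In H1299 the levels were 1.25, 0.343 and 1.52 CPM in scramble and 0.3, 1.11 and 0.688 in shHDAC2, from 6 to 30 and 5 to 19 counts. The H1299 groups overlapped, and the log2 difference of -0.58 (SE 0.45) did not pass the test (edgeR adjusted p = 0.38). Its estimate ranged from -1.06 to -0.20 over 13 alternative settings, and no change was detected at these low counts.

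ARRDC3, which acts on membrane proteins such as integrin beta-4, was the most abundant of the ARRDC genes in PANC-1 scramble per kilobase of exon. ARRDC3 (ENSG00000113369.9, chr5:91368631-91383317, minus strand) was at 81.2, 95.2 and 119 CPM there and at 47.2, 56.5 and 56.8 in PANC-1 shFOSL1. The means were 98.3 ± 18.8 and 53.5 ± 5.42, and the groups did not overlap. The log2 difference was -0.89 (SE 0.1), 1.85-fold lower, and -0.99 without scramble replicate 1. In H1299 ARRDC3 was at 39.6, 49.4 and 45.4 CPM in scramble and 45.5, 43.4 and 51.3 in shHDAC2. These groups overlapped, with a log2 difference of 0.06 (SE 0.081, edgeR adjusted p = 0.66) that turned to -0.02 without scramble replicate 1. The PANC-1 shFOSL1 libraries overlapped both H1299 groups, so for this gene only PANC-1 scramble stood apart.

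ARRDC2, an alpha-arrestin known to be induced by glucocorticoids, was higher, not lower, in PANC-1 shFOSL1. ARRDC2 (ENSG00000105643.10, chr19:18001132-18014102, plus strand) was at 11.4, 10.7 and 13.1 CPM in PANC-1 scramble and 16, 13.5 and 17.5 in PANC-1 shFOSL1, every knockdown library above every scramble library. The log2 difference was 0.41 (SE 0.12), with or without scramble replicate 1. In H1299 it was at 19, 21.2 and 20.2 CPM in scramble and 17.6, 17.2 and 15.2 in shHDAC2, without overlap. The log2 difference of -0.28 (SE 0.097) passed the test (edgeR adjusted p = 0.037), and the call was lost in 8 of 14 alternative settings, DESeq2 among them (adjusted p = 0.072). Of its exon bases 9.53% lie opposite another gene, whose reads cannot be told apart if the counting ignored strand.

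ARRDC1, an alpha-arrestin known for the budding of vesicles from the plasma membrane, differed least in PANC-1. ARRDC1 (ENSG00000197070.14, chr9:137605685-137615360, plus strand) was at 42.2, 35.7 and 37.9 CPM in PANC-1 scramble and 47.5, 41.2 and 42.1 in PANC-1 shFOSL1. These groups overlapped, with a log2 difference of 0.17 (SE 0.085), and of 0.25 without scramble replicate 1. In H1299 it was at 39.3, 35.5 and 36.6 CPM in scramble and 27.3, 30.9 and 31.4 in shHDAC2, without overlap. ARRDC1 fell by 0.32 on the log2 scale (SE 0.081, edgeR adjusted p = 0.0048). The call was lost without shHDAC2 replicate 1, at an adjusted p of 0.063, and was kept without scramble replicate 1 (log2 difference -0.27, adjusted p = 0.011). In the order of means, PANC-1 shFOSL1 overlapped PANC-1 scramble and PANC-1 scramble overlapped H1299 scramble, and H1299 shHDAC2 lay below all of them. Of the ARRDC1 exon bases 4.83% are shared with another gene on the same strand, and 0.92% lie opposite another gene.

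**Figure D2:**
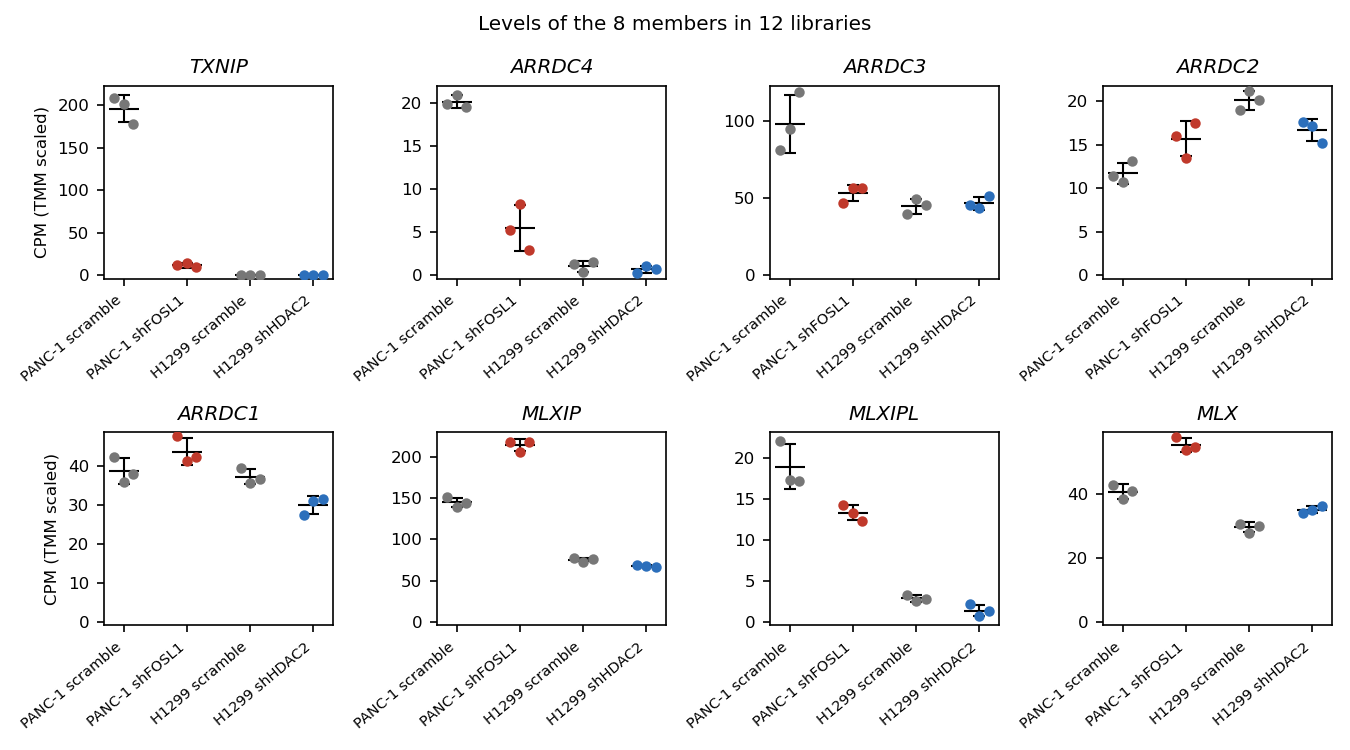
Level of each of the 8 genes in every library, in CPM on a linear axis from 0 (points are libraries, bars are the mean and SD of 3). TXNIP is at 178 to 209 CPM in PANC-1 scramble, 9.2 to 14.6 in PANC-1 shFOSL1 and at most 0.304 in H1299, while MLXIP and MLX are highest in PANC-1 shFOSL1.

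MLXIP, which encodes MondoA, was higher in PANC-1 shFOSL1 than in scramble, while its targets TXNIP and ARRDC4 were lower. MLXIP (ENSG00000175727.14, chr12:122078756-122147344, plus strand) was at 151, 140 and 144 CPM in PANC-1 scramble and 219, 206 and 218 in PANC-1 shFOSL1. The means of 145 ± 5.35 and 215 ± 7.2 gave a log2 difference of 0.56 (SE 0.06), 1.47-fold higher, and 0.60 without scramble replicate 1. In H1299 it was at 76.9, 73 and 76.3 CPM in scramble and 68.7, 67.3 and 66.9 in shHDAC2. The H1299 groups did not overlap, but the log2 difference of -0.16 (SE 0.065) did not pass the test (edgeR adjusted p = 0.073). It passed when the libraries were scaled by their upper quartile (log2 difference -0.18, adjusted p = 0.046).

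MLXIPL, which encodes ChREBP, was the least abundant of the 3 factors per kilobase of exon in every group and lower in both knockdowns. MLXIPL (ENSG00000009950.16, chr7:73593194-73624543, minus strand) was at 22, 17.3 and 17.2 CPM in PANC-1 scramble and 14.2, 13.2 and 12.3 in PANC-1 shFOSL1, without overlap. The log2 difference was -0.51 (SE 0.12), and -0.37 without scramble replicate 1. In H1299 it was at 3.27, 2.51 and 2.74 CPM in scramble and 2.1, 0.704 and 1.27 in shHDAC2, from 44 to 60 and 12 to 35 counts. MLXIPL was lower by 2.1-fold in H1299 shHDAC2 (log2 difference -1.07, SE 0.29, edgeR adjusted p = 0.0068). Replicate 2 of shHDAC2 was the lowest, and without it the difference was -0.77 and the adjusted p 0.063. Without scramble replicate 1 the difference was -0.96 (adjusted p = 0.031).

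MLX, the partner that both factors need to bind DNA, was higher in both knockdowns. MLX (ENSG00000108788.11, chr17:42567072-42573239, plus strand) was at 42.8, 38.2 and 40.8 CPM in PANC-1 scramble and 57.6, 53.5 and 54.5 in PANC-1 shFOSL1, without overlap. The log2 difference was 0.44 (SE 0.077), and 0.49 without scramble replicate 1. In H1299 it was at 30.6, 27.8 and 30 CPM in scramble and 34, 34.8 and 36.1 in shHDAC2, again without overlap. MLX rose 1.18-fold in H1299 (log2 difference 0.24, SE 0.08, edgeR adjusted p = 0.026). The call was lost on leaving out any 1 shHDAC2 library (adjusted p = 0.054, 0.077 and 0.12 for replicates 1, 2 and 3) or scramble replicate 2 (0.098), and kept without scramble replicate 1 (0.0087). Of its exon bases 18.21% lie opposite a neighbouring gene, PSMC3IP.

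Per kilobase of exon, TXNIP was the most abundant of the 8 genes in PANC-1 scramble, at 54.4 ± 4.43 RPKM. RPKM is CPM divided by exon length in kilobases, with all annotated exons of a gene merged (13.9 for MLXIP and 4.26 for MLX). Ranks and ratios between genes depend on this choice of length. TXNIP was at 3.27 ± 0.757 RPKM in PANC-1 shFOSL1. ARRDC3 was at 19.7 RPKM in PANC-1 scramble, MLXIP at 10.5, ARRDC1 at 10.2, MLX at 9.55, ARRDC4 at 4.97, MLXIPL at 3.92 and ARRDC2 at 2.53. In PANC-1 shFOSL1 MLXIP was at 15.5 RPKM and MLX at 13, both above every alpha-arrestin, of which ARRDC1 was the highest at 11.5. In H1299 scramble ARRDC1, at 9.8 RPKM, and ARRDC3, at 8.99, were the most abundant members and overlapped between libraries, and in H1299 shHDAC2 ARRDC3 was at 9.37, MLX at 8.22 and ARRDC1 at 7.88. The ratio of MLXIP to MLXIPL per kilobase was 2.7 ± 0.282 in PANC-1 scramble, 5.64 ± 0.45 in PANC-1 shFOSL1, 9.3 ± 1.01 in H1299 scramble and 20.9 ± 11.2 in H1299 shHDAC2. MondoA transcripts thus outnumbered ChREBP transcripts in all 4 groups, with a wide spread in the last group, where MLXIPL had few counts. The ratio of MLXIP to MLX per kilobase was 1.1 ± 0.025, 1.19 ± 0.0328, 0.785 ± 0.0181 and 0.594 ± 0.026 in the same groups.

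In PANC-1 all 8 genes were tested, and 4 were called lower (TXNIP, ARRDC4, ARRDC3 and MLXIPL) and 3 higher (ARRDC2, MLXIP and MLX) at an edgeR adjusted p under 0.05. Over all genes tested in PANC-1 50.9% were called, 27.1% lower and 23.8% higher. The same 7 genes had libraries that did not overlap between the groups, against 29.4% of all genes lower and 27.7% higher in that way. The ARRDC2 call was lost without shFOSL1 replicate 3, and ARRDC1 was also called higher without scramble replicate 1. The set was chosen on this comparison, so nothing is read from these counts. The median log2 difference of the 8 genes was -0.17, beside -0.02 over all genes tested.

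In H1299 7 of the 8 genes were tested, and 3 fell (MLXIPL, ARRDC1 and ARRDC2), 1 rose (MLX) and 3 did not pass (ARRDC4, ARRDC3 and MLXIP). Over all 16465 genes tested there 22.4% were called, 12.1% lower and 10.3% higher. The median log2 difference of the 7 genes was -0.28, beside 0 over all genes tested. Apart from MLXIPL, the called members differed by at most 0.32 on the log2 scale. The count of 4 was 1 without shHDAC2 replicate 1, 1 without shHDAC2 replicate 2, 2 without shHDAC2 replicate 3 and 2 without scramble replicate 2. With all libraries kept, it was 3 with DESeq2, with a filter of at least 1 count in total and with all 12 libraries in one fit. It was 5 with upper quartile scaling.

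**Figure D3:**
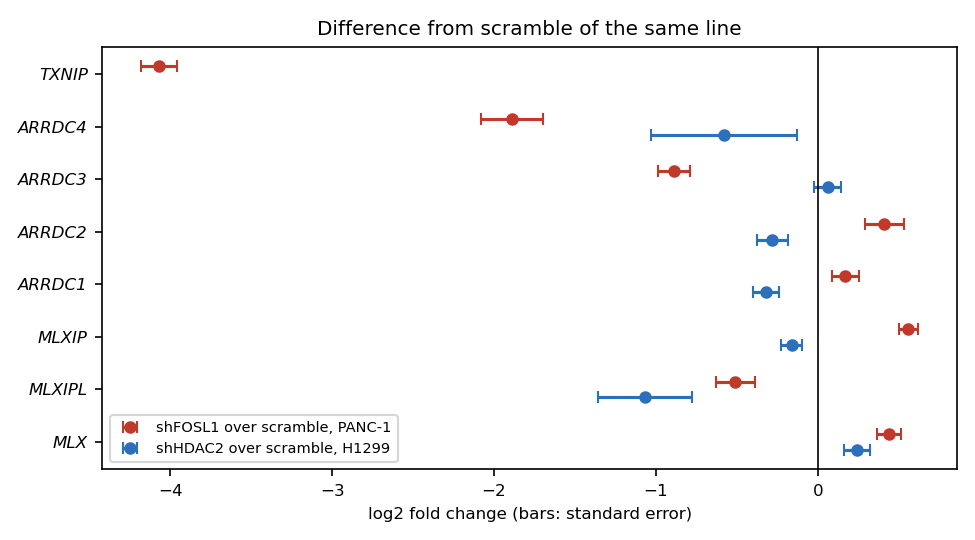
Log2 difference of each gene between knockdown and scramble (points) with its standard error (bars), for FOSL1 knockdown in PANC-1 and HDAC2 knockdown in H1299. TXNIP lies at -4.07 in PANC-1 and is not drawn for H1299, where it was not tested, and the H1299 value farthest from 0 is that of MLXIPL at -1.07.

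The genes around the members were described from 8 lists, some of which share genes (HK2, SLC2A1 and TXN are each in 2). In PANC-1 these are counts from the comparison on which the set was chosen, and they stand beside 27.1% of all genes called lower and 23.8% higher. Of the glucose 6-phosphate supply list, 5 of 8 tested genes were called lower and 1 higher, with a median log2 difference of -0.31. SLC2A3, a high-affinity glucose transporter, was at 1.12 ± 0.449 CPM in PANC-1 shFOSL1 and 19.3 ± 1.27 in scramble, a log2 difference of -4.11. SLC2A1, the common glucose transporter and a known cargo of TXNIP, was at 58 ± 6.68 and 142 ± 11.5 CPM (-1.30). HK2, a hexokinase that makes glucose 6-phosphate, was at 20.9 ± 4.85 and 77.4 ± 8.29 CPM (-1.90). Both transporters and the hexokinase were lower in the same libraries as TXNIP.

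Of 14 tested genes of the carbohydrate response list, which are linked to ChREBP or MondoA, 9 were called lower and 4 higher in PANC-1 (median -0.36). ELOVL6, a fatty acid elongase, was lower (-1.62), as was PFKFB3, a regulator of glycolysis (-1.09), while SCD, the stearoyl-CoA desaturase, was higher (0.88). Of 9 tested factors that pair with MLX or MAX, 5 were called lower and 3 higher (median -0.47). MYCL was lower by 2.66 on the log2 scale and MYC, at 110 against 225 CPM, by 1.05. The repressor MXD1 was also lower (-1.33).

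Of the thioredoxin system 5 of 12 genes were called lower and none higher in PANC-1 by edgeR (median -0.16; 0 higher at an unadjusted p under 0.05, and 0 by DESeq2). Without scramble replicate 1, 1 was called higher. TXN itself, the thioredoxin that TXNIP binds, was at 125 ± 5 CPM in PANC-1 shFOSL1 and 133 ± 4.22 in scramble and was not called, while SRXN1, which repairs peroxiredoxins, was lower (-1.02). Of the NEDD4 family ligases 3 of 9 were called lower (1 without scramble replicate 2) and 2 higher (median -0.14), with NEDD4 at 25.2 ± 0.328 against 13.5 ± 3.23 CPM (0.88) and HECW2 lower (-1.18). Of 6 cargo or partner genes of the alpha-arrestins, 3 were called lower and 1 higher (2 without scramble replicate 1; median -0.59). Among these SLC2A4, the insulin-responsive glucose transporter, was lower (-1.29) and ITGB4, integrin beta-4, was higher (0.59). Of 3 other arrestins tested, ARRB2 was called lower (-0.39) and ARRB1 higher (0.29), with a median of -0.04 for the list. Of 7 glucocorticoid-responsive genes, 4 were called lower and 1 higher (0 higher without shFOSL1 replicate 2 or 3; median -0.75), with DUSP1 at -1.96, PER1 at -1.79, SGK1 at -1.31 and KLF9 at -0.75.

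After HDAC2 knockdown in H1299, the medians of these lists lay between -0.38 and 0.09, beside 0 over all genes tested. In the glucose 6-phosphate supply list 4 of 8 tested genes fell and none rose by edgeR (0 higher at an unadjusted p under 0.05, and 0 by DESeq2), beside 12.1% and 10.3% of all genes. The count of 4 was 1 without shHDAC2 replicate 2. GPI, which converts glucose 6-phosphate to fructose 6-phosphate, fell by 0.32 (log2 scale, edgeR adjusted p = 0.00015). HK1 and SLC2A3 fell by 0.26 and 0.20. SLC2A1 and HK2 differed by -0.10 and -0.04 and did not pass the test (adjusted p = 0.30 and 0.70). In the carbohydrate response list 4 of 14 tested genes fell and 2 rose (median -0.14), the latter count being 1 on leaving out any of the 6 libraries but scramble replicate 1 or shHDAC2 replicate 2. BHLHE40, a transcriptional repressor of the circadian clock, fell by 0.68 (adjusted p = 1.2e-06), and KHK, the fructose kinase, fell by 0.55 (adjusted p = 0.0065).

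Among the partners of MLX and MAX 2 of 9 fell and none rose in H1299, the repressors MXI1 (-0.33) and MNT (-0.27), with a median of -0.05. By an unadjusted p under 0.05 0 of these were higher, and by DESeq2 0, while without scramble replicate 2, 1 was called higher. The count of falls was 1 without shHDAC2 replicate 1 or scramble replicate 3. NEDD4 rose from 26.8 ± 4.48 to 51.6 ± 1.74 CPM (log2 difference 0.94, edgeR adjusted p = 2e-09) and HECW2 fell by 0.94 (adjusted p = 0.038), of 8 ligases tested (median 0.06). The HECW2 call rests on low levels, and no ligase was called lower on leaving out any 1 shHDAC2 library or scramble replicate 2. Of the cargo list 1 gene rose and 1 fell of 6 tested (median 0), the latter ITGB4, by 0.60 on the log2 scale. In the thioredoxin system PRDX1 rose (0.23) and TXNRD3 fell (-0.42), of 11 tested (median 0.07), while TXN differed by 0.03 and did not pass (edgeR adjusted p = 0.76). The count of 1 higher was 4 without scramble replicate 1, 2 with DESeq2 or without the most abundant genes, and 0 without shHDAC2 replicate 1. The count of 1 lower was 2 without scramble replicate 2, and 0 without shHDAC2 replicate 2, shHDAC2 replicate 3 or scramble replicate 3. Among 3 other arrestins ARRB1 fell by 0.38 (median -0.38), and 1 was also called higher without scramble replicate 1. Of 7 glucocorticoid-responsive genes SGK1 rose by 0.41 and 2 fell (median 0.09). The count of falls was 0 without shHDAC2 replicate 1, shHDAC2 replicate 3 or scramble replicate 3, and 1 without shHDAC2 replicate 2. With DESeq2 no ligase, thioredoxin system gene or glucocorticoid-responsive gene was called lower in H1299, so the falls named here for HECW2 and TXNRD3 rest on edgeR alone.

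**Figure D4:**
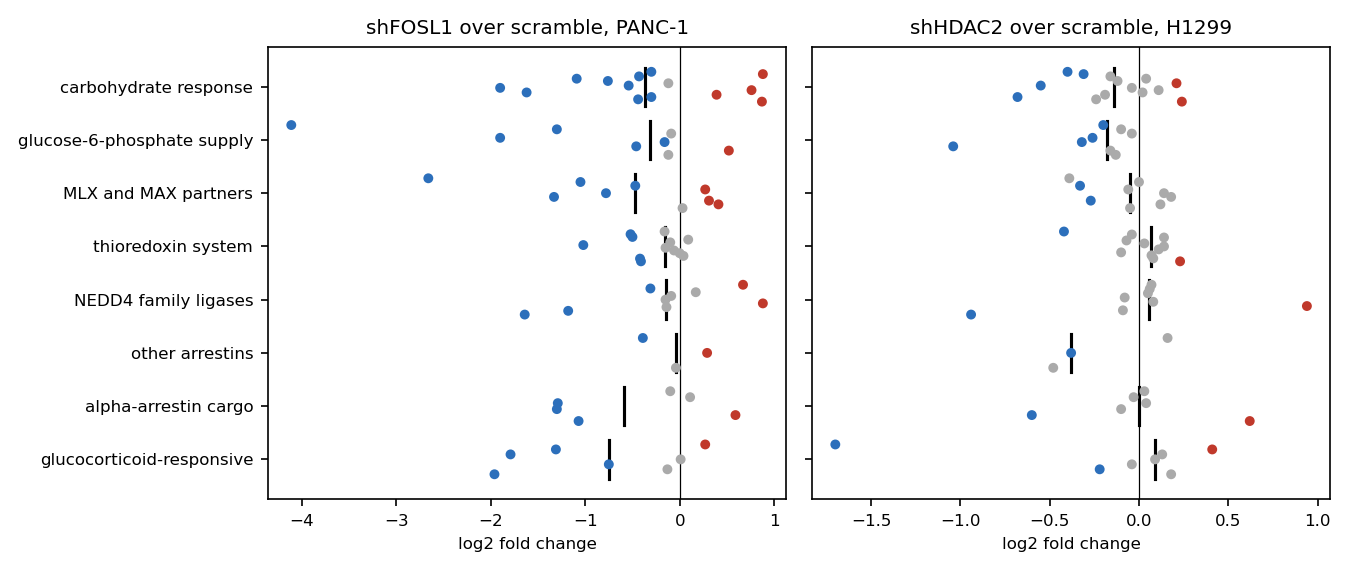
Log2 differences of the tested genes of each list after FOSL1 knockdown in PANC-1 and HDAC2 knockdown in H1299 (red called higher, blue called lower, grey not called at an adjusted p of 0.05, black bar the median). The PANC-1 points spread more widely, from SLC2A3 at -4.11 upward, and the H1299 medians lie between -0.38 and 0.09.

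Genes were ranked by how closely their log2 CPM followed that of TXNIP over the 12 libraries, among 11264 genes tested in both lines at a mean of at least 5 CPM. The closest were IGSF9B (Pearson r = 0.997), SAT1 (0.995), TMEM59L (0.995), GLUD1 (0.994) and TUB (0.994). SAT1, which acetylates spermidine and spermine, was at a mean of 979, 258, 38.3 and 29.7 CPM in PANC-1 scramble, PANC-1 shFOSL1, H1299 scramble and H1299 shHDAC2. GLUD1, the mitochondrial glutamate dehydrogenase, went from 201 to 164 to 123 to 115 CPM, the same order over a much narrower range, since r takes no account of size. The most opposite were SGTA (-0.996), ZNF512B (-0.995), USP10 (-0.995), PSKH1 (-0.994) and WDR81 (-0.994). Among the members, ARRDC4 (r = 0.955) and MLXIPL (0.936) were nearest to TXNIP, then ARRDC3 (0.861), MLXIP (0.803), MLX (0.605), ARRDC1 (0.591) and ARRDC2 (-0.814). The 12 points form 4 groups of 3 from 2 lines, so r mostly reflects the order of the group means, and MLXIP, at an r of 0.803, was higher in PANC-1 shFOSL1 than in scramble while TXNIP was lower. The list of closest genes depended on the measure: Spearman's rho shared 0 of the 5 closest genes, and a smaller prior count of 0.5 shared 2.

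**Figure D5:**
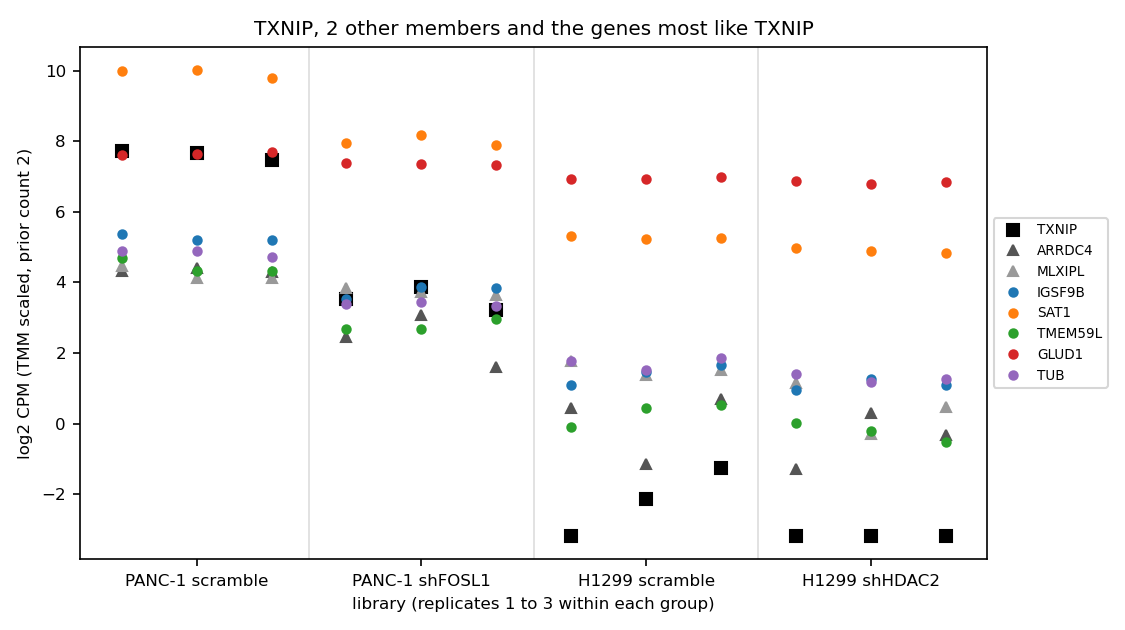
Log2 CPM (TMM scaled, prior count 2) of TXNIP (black squares), ARRDC4 and MLXIPL (grey triangles) and the 5 genes with the highest r with TXNIP (coloured circles) in the 12 libraries, by group. TXNIP, SAT1 and GLUD1 are all highest in PANC-1 scramble and lowest in H1299 cells, over ranges of very different width. TXNIP values in H1299 rest on 0 to 6 counts, and both H1299 groups overlap for this gene.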

How the data were processed

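Per the labels and the study's methods, total RNA from cultured cells was made into libraries with an NEBNext Ultra kit. The authors deposited a table of whole-number counts per gene, from reads handled with cutadapt and FastQC, aligned to GRCh38 with STAR 2.7.2b and counted with featureCounts 2.0.1. The annotation release, the strand setting and whether reads or pairs were counted are not given in the sources used here. Gene positions and exon lengths came from GENCODE 44, which held 60340 of the 60668 gene identifiers. Library totals were 16065723 to 19173421 counts.

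Each knockdown was compared with scramble of its own line by edgeR 4.0.16 in R 4.3.3 (filterByExpr, TMM, quasi-likelihood test, Benjamini-Hochberg adjustment over all genes tested), and a call is an adjusted p under 0.05. DESeq2 1.42.0, the tool of the study, was run as an alternative, with other scalings, filters, a replicate block, all 12 libraries in one fit and each library left out. The procedure was tested on simulated counts. Levels are CPM after TMM over the 12 libraries, with no test. At 3 against 3, the smallest p of an exact permutation test is above 0.05, so only the model across all genes was used.

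The members and lists were chosen with earlier results of these data known. Named were the 8 members, both targets, 5 genes at each end of likeness to TXNIP (mean of at least 5 CPM), and up to 4 called genes per list and comparison with the largest log2 difference (mean of at least 1 CPM), and other genes were named after their values were seen. Replicate numbers did not pair the libraries. A few genes of these lists are counted but not reported by name here.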

Additional observations from a re-analysis of the deposited data

How the results depend on the processing

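Leaving out 1 library at a time gave 2376 to 4067 called genes in H1299 (main value 3695), of which 995 to 2074 were higher (main value 1702), and 1 to 4 called members, with 0 to 1 higher and 1 to 3 lower. With all libraries kept, the other settings gave 3 to 5 called members there. ARRDC3 after HDAC2 knockdown ranged from -0.02 to 0.13 on the log2 scale, and its sign turned without shHDAC2 replicate 3 (-0.01) and without scramble replicate 1 (-0.02). The call of ARRDC2 was lost in 8 of 14 alternatives, that of MLX in 4, and those of ARRDC1 and MLXIPL in 1 each. The cause was not tested. The 8 members kept their direction after FOSL1 knockdown in all 14 alternatives run, with TXNIP at -4.24 to -3.91, while the ARRDC2 call was lost without shFOSL1 replicate 3 and ARRDC1 was called without scramble replicate 1.

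Same-numbered libraries did not deviate together (r of 0.056, 0.067 and -0.018 in PANC-1 and -0.014, -0.115 and 0.121 in H1299), so the numbers do not pair them. With a replicate block 4 members were called in H1299, 3666 genes in all there and 8404 in PANC-1, and the block changed no call of a member, while 0 NEDD4 family ligases were called lower in H1299 in place of 1. TXNIP, ARRDC4 and MLXIPL rest on few counts in H1299, which limits what can be seen of them there. The list counts depend on single libraries: in H1299 glucose 6-phosphate supply genes called lower went from 4 to 1 without shHDAC2 replicate 2, and thioredoxin system genes called higher from 1 to 4 without scramble replicate 1. In PANC-1 NEDD4 family ligases called lower went from 3 to 1 without scramble replicate 2. Other list counts of 0 to 2 genes changed on leaving out a library, with DESeq2, with the count filter, without the most abundant genes or with all 12 libraries in one fit.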
